A study of Caenorhabditis elegans with 4 samples.

Results

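The peaks described here are the RNA polymerase II (Pol II) binding regions on chromosome IV of Caenorhabditis elegans that lie outside the piRNA domains of that chromosome. They were chosen by position alone: a peak was taken when its midpoint lay neither between positions 4500000 and 7000000 nor between 13500000 and 17200000. The rule gave 1413 of the 1906 peaks on IV, out of 10731 in the whole list. They fell into 3 stretches, namely a left segment before the first domain with 514 peaks, a middle segment between the domains with 875 peaks and a right tip past the second domain with 24 peaks. The remaining 493 peaks of IV lay inside the domains.

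The study mapped Pol II by chromatin immunoprecipitation and sequencing in 1 kind of animal, wild-type hermaphrodites of the laboratory strain N2 at the L4 larval stage, grown at 20 °C and fixed with 2% formaldehyde. The labels name 2 ChIP DNA and 2 input DNA samples, the latter being chromatin taken before immunoprecipitation. The antibody was 8WG16, a mouse monoclonal to the heptapeptide repeat at the end of AMA-1, the largest Pol II subunit. The attached protocol text names embryos and an antibody to GFP, which differs from the labels' own stage and antibody. Whole worms were used, so a region bound in few cells and a region bound weakly in many cells cannot be told apart.

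In C. elegans, piRNAs are short germline RNAs, also called 21U-RNAs, that guide the Argonaute protein PRG-1 to foreign transcripts. Most of their genes lie in a pair of large domains on chromosome IV, each gene being a very short Pol II transcription unit. The rest of IV carries ordinary protein-coding genes, many of them grouped in operons that are transcribed as 1 unit and split by trans-splicing. Autosome centres recombine little and hold many housekeeping genes, whereas the arms recombine more and hold more repeats and fast-evolving gene families. Genes of the major sperm protein, which L4 hermaphrodites make in quantity, are known to lie in clusters on II and IV. No annotation or genome of build WS190, the build of the list, was used here, so peaks are named by position, without genes or sequence.

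The list holds 1 combined value per peak, a q-value, here a p-value multiplied by the regions tested and divided by the peak's rank. There is no spread between replicates, and no difference below was tested. Intervals in brackets are 95% exact binomial intervals. They cover counting error only and treat peaks or tags as independent. The q-values hold more than a ranking. Multiplied by rank and divided by 20431 regions tested, they equalled binomial tail probabilities at 0.5 for a single pair of whole numbers in 10724 of the 10731 peaks, within a relative tolerance of 1e-09. With ranks shifted by 1 place either way, only 3 and 2 peaks matched. The larger number of each pair is read here as ChIP tags and the smaller as input tags, a tag being a sequenced fragment placed on the genome. The listed peaks are 52.5% of the 20431 regions. The implied ranks run from 68 to 10798, with 4672 of 4675 readings in 1 unbroken series, so the 67 regions ranked ahead of the first listed peak were not analysed here. Their positions and widths are unknown here. Below, "strongest" and "widest" therefore mean among listed peaks, and counts, densities, coverage and shares of broad peaks are of listed peaks only.

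Pol II peaks outside the domains were most frequent in the middle of IV and least frequent at its right tip. The middle segment held 135 peaks per Mb, the left segment 114 and the right tip, which ends with the last listed peak at 17.5 Mb, 87.4. The left segment had 0.849 times the density of the middle one (0.759 to 0.947). For the tip the ratio to the middle was 0.650 (0.414 to 0.973), which rests on 24 peaks. Covered length followed the same order: peaks covered 10.3% of the middle segment, 8.35% of the left and 5.98% of the tip, 1061 kb in all.

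Within segments, density varied by less than 2-fold between bins of 500 kb. In the 9 bins of the left segment the number of peaks ran from 41 to 76, with a median of 53. The sparsest bin there began at 500001 and the densest at 4000001, next to the first domain. In the 13 bins of the middle segment the number ran from 46 to 81, with a median of 68. The bin from 12500001 was both the sparsest and the least covered, at 4.20%. Densest were the bins from 10000001 and 11000001, with 81 peaks each. Coverage was highest, at 14.0%, in the left segment's bin from 4000001. It reached 12.7% in the middle segment's bin from 12000001.

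**Figure D1:**
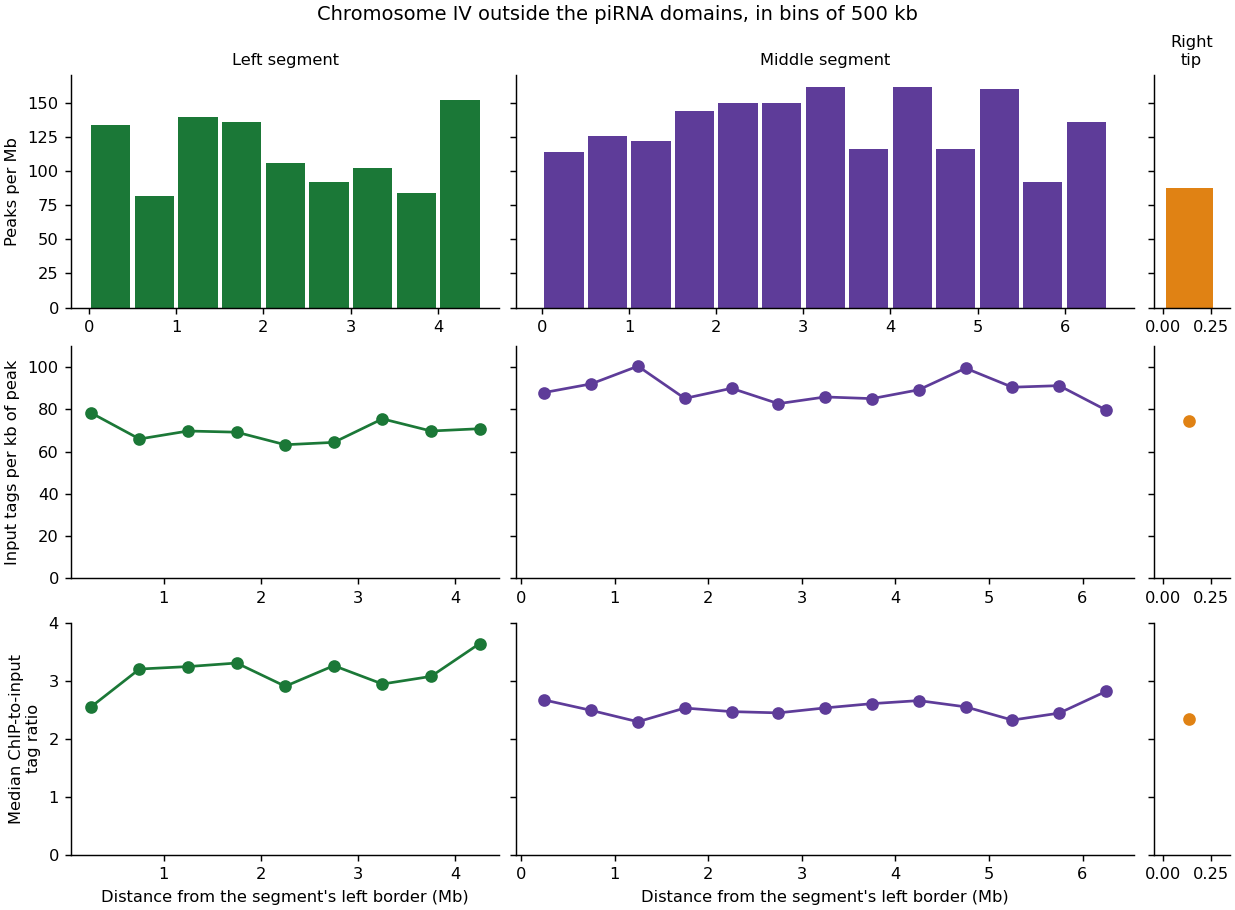
Peaks per Mb (top), input tags per kb of peak (middle) and median ChIP-to-input tag ratio (bottom) in bins of 500 kb, against distance from the left border of each segment; the right tip is 1 shorter bin. Every bin of the left segment has fewer input tags per kb (63.2 to 78.4) than any bin of the middle segment (79.7 to 100.5).

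The peaks were mostly short. Their median width was 431 bp (403 to 457), with quartiles of 227 and 872 bp. The medians were 400.5 bp (368 to 443) in the left segment, 442 bp (413 to 472) in the middle and 494.5 bp (342 to 760) at the tip. Intervals of the 3 medians overlapped. The left segment held more very narrow peaks than the middle: 62 of its peaks (12.1%) were under 100 bp, against 59 (6.74%) in the middle and 0 of 24 at the tip. Over the whole list the share was 9.04%. In the stretches of II, III and V that match the left segment in relative position it was 10.6%, 12.5% and 4.03%. Broad peaks of 2 kb or more numbered 117. They made up 8.28% of the peaks (6.90 to 9.84) and 36.3% of the covered length. Their share was 8.37% in the left segment and 8.34% in the middle. Peaks of 5 kb or more numbered 12, with 5 in the left segment, 7 in the middle and 0 at the tip.

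Strength, given as −log10 of the q-value, had a median of 5.58 (5.22 to 5.99), and its quartiles were 3.32 and 12.0. By segment the medians were 5.78 (5.24 to 6.55) on the left, 5.39 (5.08 to 5.89) in the middle and 5.01 (3.07 to 10.3) at the tip. These intervals overlapped as well. Of the 1073 strongest peaks of the list, its top decile, the left segment held 71, the middle 87 and the tip 1. That is 13.8% (10.9 to 17.1) of left and 9.94% (8.04 to 12.1) of middle peaks.

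The tag numbers separate how many fragments a peak gathered from how enriched it was. Tags were obtained for 1412 of the 1413 peaks, which together held 249243 ChIP tags and 86376 input tags. The median peak held 92.5 ChIP tags (87 to 99) and 36 input tags (35 to 38). The median ratio of ChIP to input was 2.72 (2.65 to 2.79), with quartiles of 2.18 and 3.53. Ratios of peaks that had to pass a q-value limit cannot be low where tags are few, since such regions would not have been listed.

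Enrichment was higher in the left segment than in the middle. The median ChIP-to-input ratio was 3.20 (3.10 to 3.32) on the left, 2.55 (2.49 to 2.60) in the middle and 2.34 (2.09 to 3.15) at the tip. A ratio of 4 or more was found for 161 left peaks (31.3%, 27.3 to 35.5) and 91 middle peaks (10.4%, 8.47 to 12.6). Over the whole list the share was 20.5% (19.7 to 21.2), and in the stretches of II, III and V that match the left segment it was 24.7%, 27.2% and 12.9%. By bins of 500 kb the median ratio ran from 2.55 to 3.64 on the left and from 2.29 to 2.81 in the middle. In 8 of the 9 left bins it exceeded every middle bin; the exception was the bin at the left end of the chromosome. With tags summed over the peaks of a bin before the ratio was taken, 6 of the 9 left bins exceeded every middle bin. The left segment lay above the middle in each of the 6 width classes. For widths of 250 to under 500 bp, left and middle peaks had medians of 2.83 (2.60 to 3.20) and 2.34 (2.26 to 2.48), and for 2 kb or more they had 3.76 (3.31 to 4.34) and 2.66 (2.46 to 2.99). The intervals of the medians overlapped below 100 bp and from 500 to under 1000 bp, and were apart in the other 4 classes.

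Input per length moved with this difference, whereas ChIP tags per length were nearly level. Left peaks held 70.4 input tags per kb of peak and middle peaks 88.7, a ratio of 0.793. ChIP tags per kb were 234 and 239, a ratio of 0.981. The median peak held 27 input tags (26 to 32) on the left and 41 (38 to 45) in the middle. Input tags per kb lay below every middle bin in 9 of the 9 left bins. The part of input in the difference of enrichment was not tested beyond these values.

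**Figure D2:**
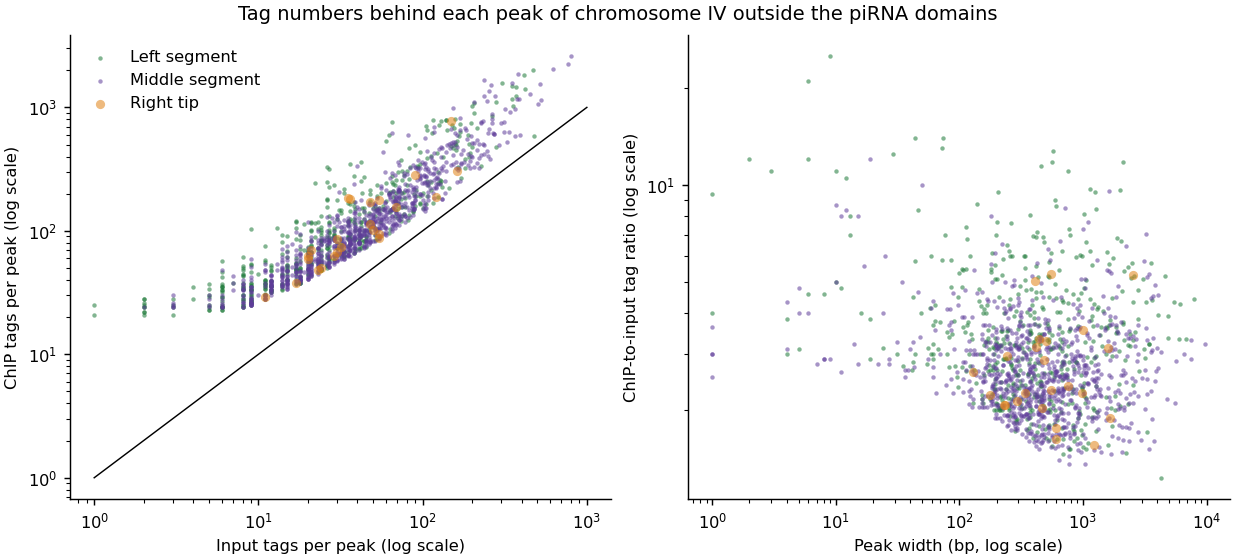
Left: ChIP tags against input tags for 1412 peaks, both on log scales, with a line where the numbers are equal. Right: ChIP-to-input ratio against peak width on log scales; the empty area at the lower left is where the q-value limit lets no peak through, and left-segment peaks are frequent at high ratios.

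Among the peaks, width went closely with the number of tags, whereas enrichment did not move in a single direction with width. Spearman's rho between width and ChIP tags was 0.97 over 1412 peaks, and between width and strength it was 0.74. Between width and the ChIP-to-input ratio it was -0.14. These are descriptions over peaks of the same libraries; a wider peak gathers more tags by its length, and the ratio is bounded below by the q-value limit. By width class the median ratio fell from 3.67 (3.22 to 4.0) under 100 bp to 2.49 (2.39 to 2.61) from 250 to under 500 bp. It was 2.52 (2.35 to 2.62) from 500 to under 1000 bp and 2.71 (2.48 to 2.96) from 1000 to under 2000 bp. Among peaks of 2 kb or more it reached 3.14 (2.86 to 3.32).

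The strongest peaks of the longer segments were broad and differed in enrichment. On the middle segment the strongest was 13388656 to 13395605 (6950 bp, q = 1.12e-295), 1 of the peaks for which no tag numbers were obtained. Next came 11080611 to 11083825 (3215 bp, q = 1.32e-264). It held 1679 ChIP and 238 input tags, a ratio of 7.05 (6.16 to 8.11). The peak at 10933634 to 10937446 had 1861 and 379 tags, a ratio of 4.91 (4.39 to 5.50). The fourth, 9989413 to 9999111, was also the widest outside the domains at 9699 bp. It gathered the most ChIP tags of the 4 with tag numbers, 2592 against 805 input tags, at the lower ratio of 3.22 (2.97 to 3.49). The fifth, 11819707 to 11822829, had 1506 and 260 tags, a ratio of 5.79 (5.07 to 6.63).

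On the left segment the strongest peak was 4402008 to 4408084 (6077 bp, q = 2.30e-221), with 1993 ChIP and 467 input tags and a ratio of 4.27 (3.86 to 4.73). It lay in the longest run of close peaks of the segment. The widest, 2601057 to 2609008 (7952 bp, q = 3.42e-209), was second in strength, with 1824 and 412 tags. The third was 3644770 to 3649345, with 1590 and 305 tags and a ratio of 5.21 (4.61 to 5.91). The fourth was 4019748 to 4025227, at 4.32 (3.84 to 4.87). The fifth stood apart in enrichment: 2765064 to 2767181 was 2118 bp wide and held 763 ChIP tags over 65 input tags, a ratio of 11.7 (9.10 to 15.4).

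The other peaks among the 5 widest of each longer segment had ratios near 3. In the left segment 1866965 to 1873762 (6798 bp) had a ratio of 3.32 (2.96 to 3.74), and 653186 to 659112 (5927 bp) had 3.32 (2.95 to 3.76). In the middle segment 13028961 to 13036505 (7545 bp) had 3.31 (3.02 to 3.63), 10818896 to 10826404 (7509 bp) had 2.90 (2.67 to 3.15) and 7391401 to 7398019 (6619 bp) had 2.99 (2.71 to 3.31). Chosen after values were seen, the highest ratio among peaks of at least 250 bp was 12.7 (8.51 to 19.7). It belonged to 991171 to 991739 on the left, a peak of 569 bp with 330 ChIP and 26 input tags. The highest in the middle, 11225357 to 11226979, had 622 and 65 tags and a ratio of 9.57 (7.40 to 12.6).

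The right tip held 1 strong peak. It lay at 17469894 to 17472409, within the last 5 kb of listed sequence, and was 2516 bp wide (q = 4.56e-102). It held 777 ChIP and 148 input tags, a ratio of 5.25 (4.40 to 6.30). The next in strength were 17263501 to 17264046 (q = 5.96e-25; ratio 5.29, 3.67 to 7.82), 17249678 to 17250082 (q = 1.37e-23; 5.03, 3.50 to 7.40), 17442956 to 17444561 (q = 2.57e-23; 3.13, 2.46 to 4.02) and 17261859 to 17262855 (q = 1.14e-16; 3.56, 2.57 to 5.02). After the peak at the end, the widest were 17333100 to 17334763 (1664 bp), with a ratio of 1.90 (1.57 to 2.31), and 17442956 to 17444561 (1606 bp). They were followed by 17271329 to 17272553 (1225 bp), with a ratio of 1.56 (1.23 to 1.98). The widest peaks of the tip thus included weak ones, the last of these having a q-value of 0.000214.

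Many peaks lay close to a neighbour. Of 1410 gaps with both neighbours in 1 segment, 532 (37.7%, 35.2 to 40.3) were under 1 kb, and the median gap was 1838 bp (1603 to 2055). Over the whole list 35.8% (34.9 to 36.7) of gaps were this short, on II 34.5% (32.3 to 36.8), on III 35.1% (32.9 to 37.3), on V 29.7% (27.4 to 32.2) and inside the domains 41.8% (37.4 to 46.3), so the share outside the domains was near that of the list. The share was 40.9% (36.6 to 45.3) on the left, 36.3% (33.1 to 39.6) in the middle and 21.7% (7.46 to 43.7) at the tip, where there were 23 gaps. The median gap was 3377 bp (1505 to 9537) at the tip, against 1771 bp (1339 to 2259) on the left and 1805.5 bp (1519 to 2093) in the middle. No gap was under 200 bp, the smallest in the list.

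Runs of peaks less than 1 kb apart reached 11 peaks in either longer segment. On the left, 11 peaks from 4393496 to 4415981 covered 19535 bp of 22486 bp, and their ratios ran from 2.86 to 9.72. In the middle, 11 peaks from 10328754 to 10339148 covered 6392 bp of 10395 bp, with ratios from 2.06 to 4.14. The longest run at the tip had 4 peaks. Runs of 5 or more numbered 13 on the left, with 86 peaks, and 21 in the middle, with 132. Single peaks, with no neighbour under 1 kb away, were 207 (40.3%) on the left, 389 (44.5%) in the middle and 17 (70.8%) at the tip. Peaks with a near neighbour were wider, with medians of 522 against 301 bp on the left and 533 against 353 bp in the middle. Their median ratios were close to those of single peaks, at 3.25 against 3.13 on the left and 2.54 against 2.57 in the middle.

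The longest stretches without a listed peak exceeded 100 kb in both longer segments. They hold no listed peak, but the 67 regions ranked ahead of the list have positions unknown here. On the left they ran from 3898453 to 4014439 (116 kb), from 2498120 to 2599633 (101514 bp) and from 667120 to 761859 (94.7 kb). The second of these ended shortly before the widest peak of the segment, which began at 2601057, with another listed peak between. In the middle they ran from 12896673 to 13005054 (108 kb), from 12451565 to 12559176 (108 kb) and from 10513715 to 10577140 (63.4 kb). At the tip they were 17334764 to 17379993 (45.2 kb), 17386707 to 17429268 (42.6 kb) and 17293914 to 17331160 (37.2 kb). Gaps of 20 kb or more were 12.7% of gaps on the left, 10.2% in the middle and 3 of 23 at the tip, beside 12.2% over the whole list.

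**Figure D3:**
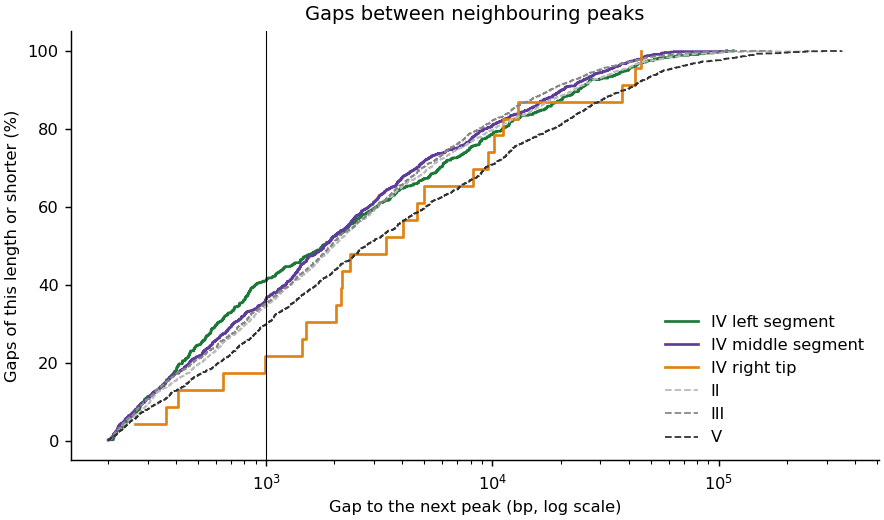
Share of gaps (%) at or below a given length (bp, log scale) in the 3 segments of IV and on II, III and V; the vertical line marks 1 kb. At 1 kb the left segment stands at 40.9%, the middle at 36.3%, II at 34.5%, III at 35.1% and V at 29.7%.

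Peaks lay close to the border at 13500000 and farther from the others. There the last peak of the middle segment, 13499766 to 13499917 (q = 0.000196), had its midpoint 158.5 bp before the border, and the first domain peak, 13500313 to 13500703 (q = 1.44e-08), had its midpoint 508 bp past it. At 4500000 the nearest peaks were 4489727 to 4489787 (q = 0.000356) outside and 4511458 to 4513776 (q = 1.30e-52) inside, with midpoints 10243 and 12617 bp from the border. At 7000000 they were 7011896 to 7012095 (q = 0.00846) outside and 6974209 to 6974513 (q = 2.76e-06) inside, 11995.5 and 25639 bp away. At 17200000 they were 17249678 to 17250082 outside and 17197638 to 17197866 (q = 0.00175) inside, 49880 and 2248 bp away.

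Compared with the domains, the rest of IV held more peaks per length. Outside there were 125 peaks per Mb and inside 79.5, a ratio of 1.58 (1.42 to 1.75), and coverage was 9.41% against 6.48%. The domains were unlike each other. The first held 105 peaks per Mb, between the left segment (114) and the right tip (87.4), and the second held 62.4. Coverage was 8.71% in the first domain, above the left segment (8.35%) and the tip (5.98%), and 4.98% in the second. Median width was 431 bp outside and 496 bp (433 to 552) inside. The median ChIP-to-input ratio was 2.72 (2.65 to 2.79) outside and 2.70 (2.63 to 2.83) inside, with the left segment (3.20) above and the middle segment (2.55) below the domains. At 2 kb or more it was 3.14 (2.86 to 3.32) outside and 2.64 (2.45 to 3.15) inside, with overlapping intervals.

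Against II, III and V, IV outside the domains stood between II and III in density and above V. Its 125 peaks per Mb compared with 115 on II (ratio 1.09, 1.02 to 1.17), 138 on III (0.910, 0.849 to 0.976) and 69.0 on V (1.82, 1.69 to 1.96). The interval against II included 1 with q-values of at most 1e-05 (0.989 to 1.20) and with peaks less than 500 bp (0.971 to 1.14) or 2000 bp (0.947 to 1.16) apart joined. Coverage was 9.41% on IV outside the domains, 8.08% on II, 9.12% on III and 6.24% on V. Among listed peaks the order of IV and III thus differed between number and length. The 67 regions ranked ahead of the list, of unknown position and width, could alter the order in coverage. Median width was 431 bp (403 to 457) on IV outside the domains, 394 bp (374 to 416) on II, 367 bp (351 to 383) on III and 512.5 bp (480 to 541) on V, and only the intervals of IV and II overlapped among those of IV with the others. Median strength was 5.58 on IV, 5.62 on II, 5.62 on III and 4.77 (4.51 to 5.06) on V. The median ChIP-to-input ratio of 2.72 on IV compared with 2.73 (2.67 to 2.78) on II, 2.66 (2.60 to 2.71) on III and 2.40 (2.35 to 2.46) on V.

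**Figure D4:**
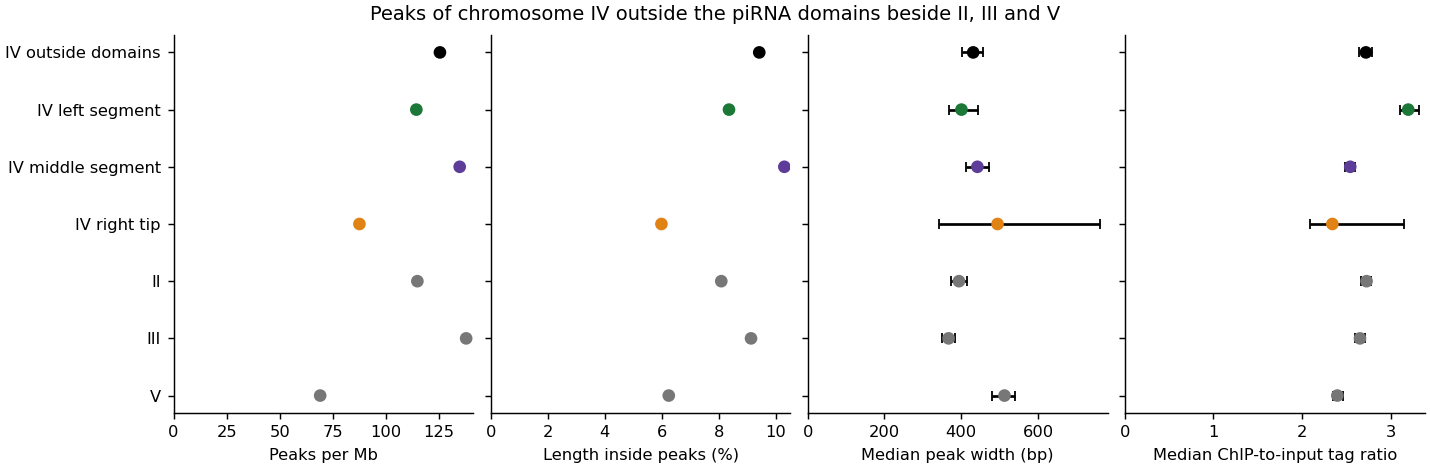
Peaks per Mb, percentage of length inside peaks, median width (bp) and median ChIP-to-input ratio for IV outside the domains, its 3 segments and chromosomes II, III and V; bars on the medians are 95% exact binomial intervals. IV outside the domains lies between II and III in density (125 against 115 and 138) and the left segment has the highest median ratio (3.20) of the groups shown.

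The difference was uneven along the chromosome when the same relative positions were compared. The left segment, at 114 peaks per Mb, had 1.91 times (1.64 to 2.24) the density of the matching stretch of II, which held 59.7. Against the matching stretch of V, with 46.2, it was 2.47 times (2.12 to 2.89). On III that stretch held 111 (ratio 1.03, 0.902 to 1.18). In the middle, IV had 135 peaks per Mb beside 145 on II (0.929, 0.844 to 1.02), 154 on III (0.872, 0.791 to 0.961) and 88.2 on V (1.53, 1.38 to 1.69). The tip of IV, at 87.4, was below the matching tip of III, at 194 (0.450, 0.261 to 0.761). Its intervals against the tips of II (0.599, 0.341 to 1.04) and V (0.924, 0.519 to 1.63) included 1.

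Higher enrichment on the left than in the middle was also seen at the matching positions of III, with medians of 3.07 (2.89 to 3.30) and 2.50 (2.41 to 2.55). On II the medians were 2.73 (2.46 to 2.98) and 2.70 (2.62 to 2.78), and on V 2.42 (2.31 to 2.58) and 2.33 (2.24 to 2.41). Fewer input tags per kb on the left than in the middle were found on all 4 chromosomes, with ratios of 0.793 on IV, 0.712 on II, 0.705 on III and 0.864 on V. In ChIP tags per kb the left segment of IV was nearly level with its middle (0.981), whereas the matching ratios were 0.605 on II, 0.798 on III and 0.797 on V. By bins of 500 kb, chromosome I had a median ratio of 3.47 over 30 bins and 68.7 input tags per kb, beside 3.20 and 69.7 over the 9 bins of the left segment of IV, so the ratio and input of that segment were not particular to it. Whether these differences between chromosomes exceed the spread between cultures, or depend on any scaling of the input, was not tested.

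**Figure D5:**
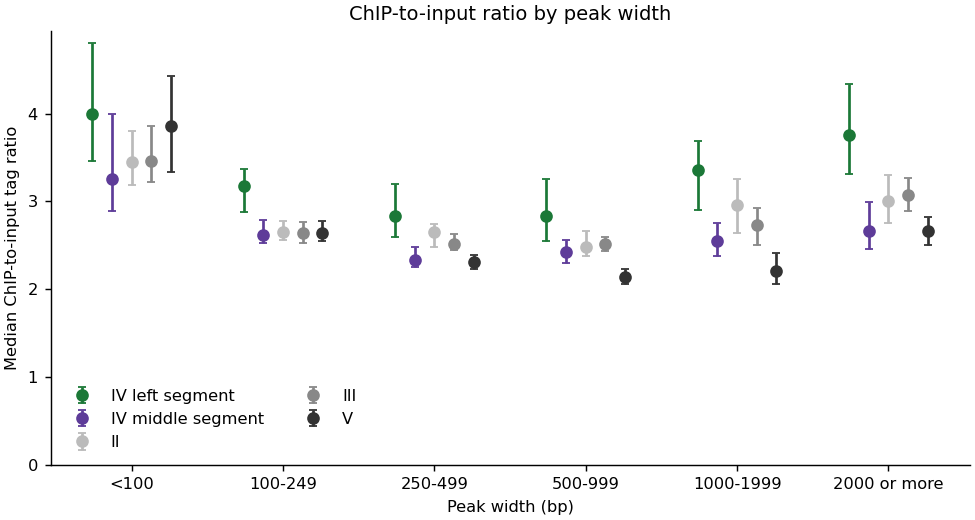
Median ChIP-to-input tag ratio with 95% exact binomial intervals by class of peak width (bp) for the left and middle segments of IV and for II, III and V. Of the groups shown, the left segment is highest in each of the 6 classes, with 3.76 at 2 kb or more against 2.66 in the middle segment.

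Broad peaks made up a larger share of the list on V than on II or III, and IV outside the domains lay between, its interval overlapping those of all 3. Those of 2 kb or more were 8.28% of peaks on IV outside the domains (6.90 to 9.84), 6.79% on II (5.66 to 8.07), 6.38% on III (5.32 to 7.58) and 10.6% on V (9.09 to 12.3). Among them the median ratio was 3.14 (2.86 to 3.32) on IV outside the domains, 3.01 (2.75 to 3.30) on II, 3.07 (2.89 to 3.26) on III and 2.66 (2.51 to 2.82) on V. The strongest listed peak of IV outside the domains had q = 1.12e-295, beside those of II (5333547 to 5341430, q = 5.68e-296) and III (3863862 to 3873773, q = 3.29e-291). Its widest listed peak, at 9699 bp, was shorter than the widest listed on II (3955633 to 3971086, 15454 bp), III (9912 bp, the same peak as the strongest there) and V (16777603 to 16788617, 11015 bp). The strongest listed on V was 12551574 to 12557250 (q = 2.10e-303). These strongest peaks held ranks 73 on IV, 72 on II, 74 on III and 68 on V. The list itself begins at rank 68, which caps the listed strength on every chromosome. The nearness of these q-values therefore says nothing about a likeness of the chromosomes.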

How the data were processed

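The data are 1 deposited list of peaks with a q-value each, named as combined over the 2 ChIP and 2 input samples. The authors called peaks with PeakSeq on WormBase build WS190, per the file headers and source field. Version, aligner, filters and any scaling of the input are not given in the sources used here. The largest q-value was 0.00998.

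Width was end minus start plus 1, placement was by midpoint, and gaps were counted where both neighbours lay in 1 segment. Chromosome spans ended at the last listed peak. Ranks were recovered from neighbouring lines with falling q-values: of 4675 whole ranks, 4672 ran on from the first line without a break. The number of regions tested was the value that matched all of the last 200 lines; the next best matched 18. Of the unmatched peaks, 6 had no matching pair and 1 had several. The recovery was tested on simulated data. Input tags may have been scaled, by a factor that is unknown here and need not be the same for every chromosome. Scaling would change the ratios and the input tags per kb themselves, and it makes intervals on ratios approximate. Intervals are exact (Clopper-Pearson, or order statistics for medians).

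Peaks named in the text are, per segment, the 5 with the smallest q-values, the 5 widest, the border peaks, the 3 longest gaps and the densest and sparsest bins, with the strongest and widest peak of II, III and V. The peaks of highest ratio and the longest runs were chosen after values were seen. The peaks, lists and comparisons were chosen with earlier results of these data known, and the tag numbers were added after the values were seen. Software was scipy 1.17.1, matplotlib 3.10.9, pandas 2.3.3 and numpy 2.4.6 under Python 3.11.15.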

Additional observations from a re-analysis of the deposited data

How the results depend on the processing

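The density of IV outside the domains against II kept its direction under 10 alternatives (1.05 to 1.16), but the interval included 1 with q-values of at most 0.00001 and with peaks joined at 500 or 2000 bp. Against III it kept its direction under 9 of 10, and in covered length of listed peaks it turned to 1.03. Against V it ranged from 1.51 to 2.06: it was 1.96 with q-values of at most 0.001, 2.06 with at most 0.00001, 1.55 with peaks joined at 2000 bp and 1.51 in covered length. Keeping q-values of at most 0.001 gave a median width of 522 bp, a median strength of 7.15, 33.8% short gaps and a median ratio of 2.92 (left 3.43, middle 2.65). At 0.00001 the ratios were 3.12, 3.64 and 2.83. With peaks of at least 100 bp, the width was 469 bp, the strength 6.16 and the ratio 2.63. Joining at 500 bp gave 474 bp and 19.7% short gaps, since joining removes the shortest gaps by construction; the cause of the other changes was not tested. Moving the domain borders by 250 kb left each value within its interval. Keeping only peaks wholly inside a segment, counted among the alternatives above, could change no value because no listed peak crossed a border. The alternatives for ChIP-to-input ratios were chosen after seeing the data. No paired analysis was possible because each listed value combines all samples. Library depths are not given in the sources used here.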
